A study of Mus musculus with 22 samples.

Results

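The genes described here were 41 genes of DNA replication and of the G1/S transition, taken by name from the 30170 gene rows of the count table. All 41 were listed there, and all 41 were among the 14520 genes that passed the filter on low counts. The list was chosen with earlier results of these data known. RNA was sequenced from C3H 10T1/2 cells, mouse embryo fibroblasts of a mesenchymal kind that form adipocytes on hormonal induction, in lines described as expressing DNMT3A1, the long form of a de novo DNA methyltransferase. The lines carried DNMT3A WT, the substitution W330R, or both W330R and R181E (W330R-R181E, the double mutant). WT and W330R cells were taken before induction (undifferentiated) and 2, 4 and 6 days into adipocyte differentiation, and double mutant cells on those 3 days alone, which gave 11 conditions of 2 libraries each and 22 libraries in all. All differentiating cells received a cocktail of isobutylmethylxanthine, dexamethasone, insulin and troglitazone in serum-containing medium and were then kept on insulin. The promoter and level of the expressed protein, the state of the endogenous gene and whether a line was 1 clone are not given in the sources used here, nor is it stated whether the 2 libraries of a condition came from separate cultures, so the p-values measure only the spread between these libraries, which may be technical.

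Chromosomal DNA is copied once in each cell cycle. In G1 the origin recognition complex, with CDC6 and CDT1, loads the MCM helicase on origins. In S phase CDC45 and the GINS complex turn that helicase on, primase and the DNA polymerases follow, and nucleotides are made on demand. The E2F transcription factors, released from the retinoblastoma protein when cyclin-dependent kinases are active, switch on most of these genes at the border of G1 and S, so that their RNA is a common measure of how much a culture proliferates. Preadipocytes that receive the hormonal cocktail are known to divide for a short time in some lines, then to leave the cell cycle as they fill with lipid. In RNA from whole cultures, fewer cycling cells and less RNA per cell cannot be told apart.

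The libraries held between 8859501 and 47453908 counts on genes, with a median of 19355792. Stromal markers (7 genes, among them Col1a1, Col1a2 and Vim) summed to between 20508 and 23237 CPM (counts scaled to a common library size after TMM normalization) in the 4 undifferentiated libraries and to between 2842 and 16616 CPM later. Not every gene moved with this sum. Pdgfra had 1338 and 2686 counts in undifferentiated WT libraries and 3446 and 4426 on day 2. Totals were 11940210 and 23727021, then 13567589 and 23763429. Vim was not lower in every later library, at 52307 counts in undifferentiated WT replicate 1 and 121316 of 15642443 in double mutant day 4 replicate 1. The adipocyte markers (7 measured genes, among them Adipoq, Fabp4 and Plin1) rose from at most 59.6 CPM to between 1425 and 9216 CPM. Immune, endothelial and epithelial markers summed to at most 16.4, 16 and 5.55 CPM. Dnmt3a was between 316 and 347 CPM in undifferentiated libraries and between 68.5 and 322 CPM afterwards, and was not called between genotypes on any day, which cannot check a substitution. The columns of the double mutant say R181A where the labels say R181E. The columns of the 4 undifferentiated libraries also follow another naming scheme than the 18 later ones. Their replicates were much closer to each other (chi-square per degree of freedom 3.0 and 3.29, against 27.3 to 95.8 later). The step from undifferentiated to day 2 thus cannot be told apart from a difference in how these libraries were made or in the cells they came from.

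Promoter windows from RefSeq (GRCm38.p6), 250 bases before to 50 bases after the annotated start, were at hand for 33 of the 41 genes. They were searched on both strands for the E2F words TTTCCCGC, TTTCGCGC, TTTGCCGC and TTTGGCGC. Words on opposite strands can overlap each other where they share GCGC. Of the 33 genes, 14 (42.4%) held a word in at least 1 window, against 704 of 27025 genes in the table (2.6%). A CCAAT word was held by 19 of the 33 (57.6%), against 41.1% of all genes, the CHR word TTTGAA by 5 (15.2%, against 20.2%), and the GC box GGGCGG by 25 (75.8%, against 38.2%). A match is a description of these letters and not a bound site. Of the genes whose values are given by library below, Mcm7, Lig1 and E2f2 carried E2F words, and Cdc45 and Rpa1, which differed between genotypes on day 2, carried CCAAT words and no E2F word. Tk1 and Fen1, also called between genotypes on that day, carried neither. These 5 windows are shown on the strand of the gene, 5′ to 3′. Capitals mark the E2F words in the first 3 sequences and the CCAAT words, on either strand, in the last 2.
Mcm7, chr5:138171834-138172133, minus strand: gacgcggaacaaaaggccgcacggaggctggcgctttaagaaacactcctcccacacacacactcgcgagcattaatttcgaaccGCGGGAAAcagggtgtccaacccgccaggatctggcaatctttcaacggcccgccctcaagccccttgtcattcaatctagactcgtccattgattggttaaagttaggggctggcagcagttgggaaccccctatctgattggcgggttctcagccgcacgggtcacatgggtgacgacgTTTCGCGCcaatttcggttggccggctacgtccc
Lig1, chr7:13278576-13278875, plus strand: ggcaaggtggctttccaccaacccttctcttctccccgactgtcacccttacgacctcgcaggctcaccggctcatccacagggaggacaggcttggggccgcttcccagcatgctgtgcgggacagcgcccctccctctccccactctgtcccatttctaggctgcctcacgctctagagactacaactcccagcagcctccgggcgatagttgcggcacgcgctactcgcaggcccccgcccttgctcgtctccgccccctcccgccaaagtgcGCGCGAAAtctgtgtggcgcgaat
E2f2, chr4:136172024-136172323, plus strand: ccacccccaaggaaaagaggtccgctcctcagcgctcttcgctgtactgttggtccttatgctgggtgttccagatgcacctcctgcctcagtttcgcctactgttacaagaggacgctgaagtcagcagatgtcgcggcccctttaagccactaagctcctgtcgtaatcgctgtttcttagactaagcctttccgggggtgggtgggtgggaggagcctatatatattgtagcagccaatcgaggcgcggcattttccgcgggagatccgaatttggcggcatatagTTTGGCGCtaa
Cdc45, chr16:18811923-18812222, minus strand: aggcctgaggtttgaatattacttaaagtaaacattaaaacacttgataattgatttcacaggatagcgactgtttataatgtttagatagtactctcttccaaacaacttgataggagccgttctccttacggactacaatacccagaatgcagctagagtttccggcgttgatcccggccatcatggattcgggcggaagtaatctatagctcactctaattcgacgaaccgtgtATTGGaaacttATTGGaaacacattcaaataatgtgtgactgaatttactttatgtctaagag
Rpa1, chr11:75348334-75348633, minus strand: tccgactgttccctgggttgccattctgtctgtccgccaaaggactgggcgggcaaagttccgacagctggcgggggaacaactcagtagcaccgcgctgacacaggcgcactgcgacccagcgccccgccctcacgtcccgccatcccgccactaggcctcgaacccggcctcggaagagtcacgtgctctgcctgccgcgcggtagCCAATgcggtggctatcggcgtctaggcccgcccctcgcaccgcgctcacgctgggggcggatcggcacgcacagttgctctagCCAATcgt
Mcm7 held 2 E2F words, beginning 165 bases before and 17 bases after the start, and the other annotated starts of Mcm7, Lig1 and E2f2 held none. Mcm6, a subunit of the same helicase, held 3 words, the most of any of the 33 genes, and 2 of these 3 overlap each other.

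The replication genes were lower together on day 2 than in undifferentiated cells. As said above, this step cannot be told apart from a difference in the libraries or cells. All falls from undifferentiated cells below carry that limit. In WT, 39 of 41 were lower on day 2 than in undifferentiated cells and none was higher, against 24.4% of all tested genes lower (edgeR quasi-likelihood test, adjusted p at most 0.05, used for every call here), with a median log2 change of -1.94 against 0.06 over all genes. In W330R, 38 of 41 were lower, against 23% of all genes, with a median of -1.80. Every role held members that fell, from origin licensing to nucleotide supply. The members were chosen with earlier results of these data known, so these shares describe the list and do not test it. Values are given by library for the gene of each role with the highest mean log2 CPM, a scale that is not corrected for gene length, for the E2F and cyclin E genes, and for the genes called on day 2. The summed level of the 41 genes was 2581 and 2633 CPM in the undifferentiated WT libraries and 2430 and 2388 CPM in those of W330R. On day 2 it was 703 and 706 CPM in WT, 735 and 747 CPM in W330R, and 909 and 823 CPM in the double mutant. The undifferentiated libraries thus stood above all 18 later ones, the highest of which reached 1110 CPM.

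**Figure D1:**
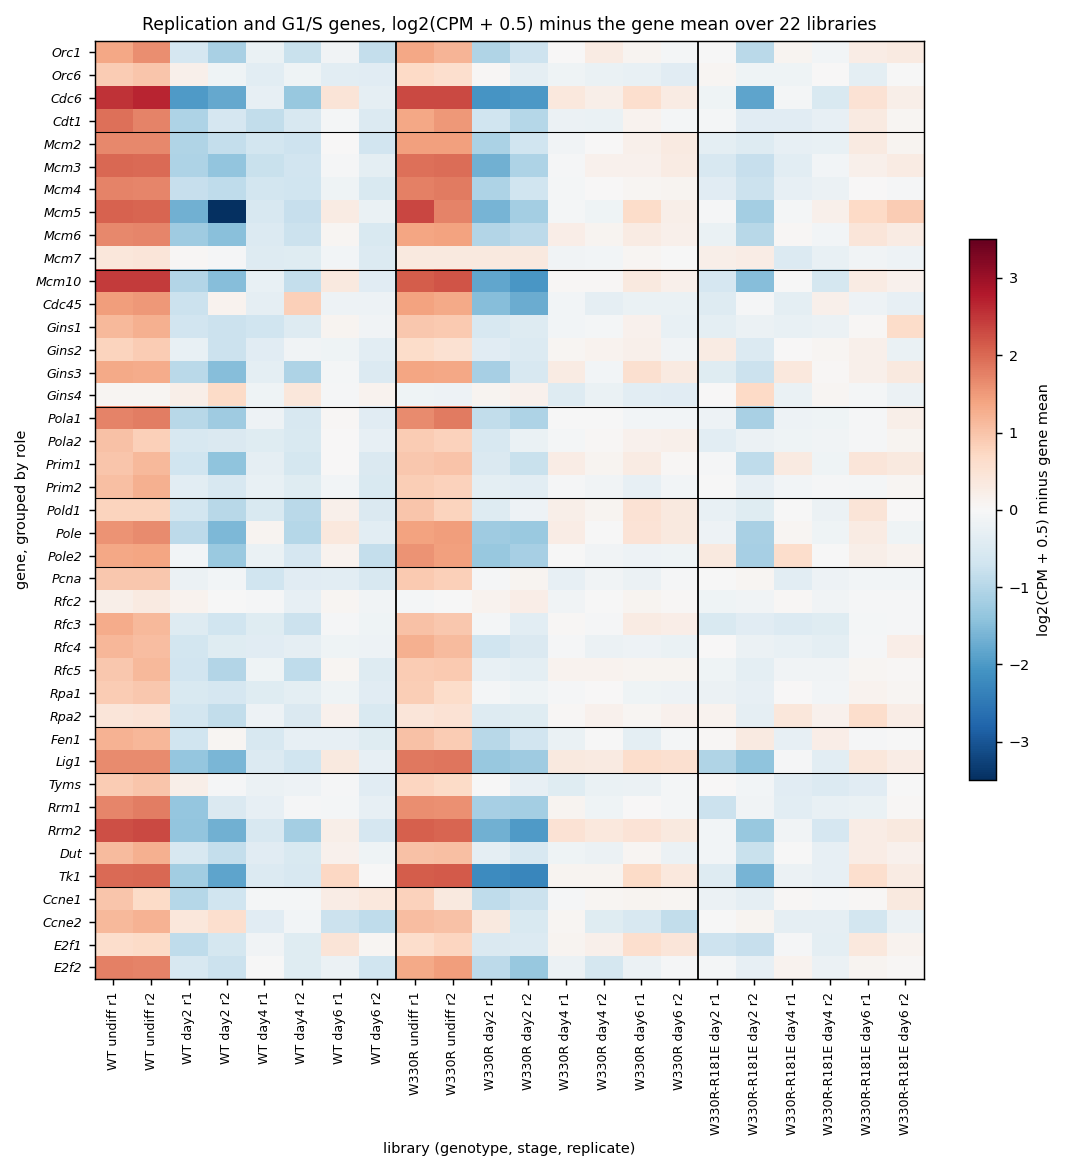
Level of each of the 41 genes (rows, grouped by role and separated by lines) in each of the 22 libraries (columns, grouped by genotype), as log2(CPM + 0.5) minus the mean of that gene over the libraries. Undifferentiated libraries are red in nearly all rows, day 2 is the bluest stage for most genes, and days 4 and 6 lie between, while Gins4, Rfc2 and Mcm7 vary little.

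The 4 members of the licensing role all fell in both genotypes. The other origin recognition genes Orc2, Orc3, Orc4 and Orc5 were not members and are counted with the replication partners below. Cdc6, the loader ATPase, fell by 5.01 ± 0.57 (SE) on the log2 scale in WT (adjusted p = 7.99e-06) and by 4.93 ± 0.57 in W330R, to between 13 and 25 counts in these day 2 libraries. Orc6, an origin recognition subunit, was 38.3 and 40.6 CPM in undifferentiated WT libraries, 33.8 and 30.9 CPM in W330R, 23.4 and 18.4 CPM on day 2 in WT and 21.1 and 16.4 CPM on day 2 in W330R, and in the double mutant 21.7 and 18.6 CPM on day 2. Its fall was shallow (-0.92 ± 0.17 in WT, adjusted p = 0.000452), its groups did not overlap, and it stayed between 15.4 and 20.5 CPM on days 4 and 6 in all genotypes.

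The MCM helicase, a ring of 6 related subunits, did not fall as a unit. Mcm2, Mcm3, Mcm4 and Mcm6 fell by between 2.6 and 3.25 on the log2 scale in WT. Mcm5 had the lowest fitted value (-5.33 ± 0.84, adjusted p = 0.000133), but with 17 counts and 0 counts in the WT day 2 libraries the size of its fall, and its rank beside that of Cdc6, are not settled. Mcm7 was 89.6 and 91.8 CPM in undifferentiated WT and 85.7 and 85.8 CPM in W330R. On day 2 it was 70.3 and 66.1 CPM in WT, 86.3 and 86.3 CPM in W330R, and 78.0 and 82.3 CPM in the double mutant. The WT libraries fell (-0.41 ± 0.12, adjusted p = 0.00968) whereas those of W330R stayed where they had been (0.01 ± 0.12, adjusted p = 0.960), a difference between genotypes that did not pass its own test (adjusted p = 0.245). Mcm7 then fell in all 3 genotypes from day 2 to day 4, when the other subunits rose or did not pass the test, to 49.4 and 50.4 CPM in WT, 62.3 and 64.2 CPM in W330R and 49.0 and 56.2 CPM in the double mutant. Of its 50-base stretches in GENCODE transcripts, 18.1% also occur in other transcripts, and its exons overlap Mir25 and Mir93 on its strand and Ap4m1 and Cops6 on the other, so its counts are uncertain.

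Of the helicase activators, which include the 4 GINS subunits, 5 of 6 fell in each genotype. Gins4 was the exception, at 37.8 and 38.2 CPM in undifferentiated WT and 41.8 and 57.6 CPM on day 2, and at 32.5 and 31.9 CPM and then 38.7 and 40.4 CPM in W330R, differences that did not pass the test (0.39 ± 0.22, adjusted p = 0.155, and 0.30 ± 0.22, adjusted p = 0.285). In the double mutant it was 36.8 and 59.4 CPM on day 2. Its GINS partners fell with the rest, Gins3 by 2.80 ± 0.36 and Gins1 by 2.11 ± 0.26 in WT. Mcm10, an initiation factor that works beside the helicase, fell by 3.96 ± 0.39 in WT and by 4.54 ± 0.40 in W330R.

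All 4 genes of the polymerase alpha and primase complex fell in both genotypes, and so did the 3 members from polymerases delta and epsilon. The subunit genes Pold2, Pold3, Pold4, Pole3 and Pole4 were not members. They are counted with the replication partners below, where Pole4 rose. Prim1, the catalytic primase subunit, was 47.4 and 52.3 CPM in undifferentiated WT and 45.9 and 47.9 CPM in W330R. On day 2 it was 14.5 and 8.66 CPM in WT, 16.5 and 13.6 CPM in W330R and 23.1 and 12.7 CPM in the double mutant, so that differentiated and undifferentiated libraries did not overlap. Pole, the catalytic subunit of the leading-strand polymerase, went from 48.8 and 51.7 CPM to 8.31 and 5.07 CPM in WT (-2.92 ± 0.39, adjusted p = 3.41e-05), and from 43.3 and 45.2 CPM to 6.47 and 6.24 CPM in W330R.

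Among the clamp, the clamp loader and the single-strand binding protein RPA, 6 of 7 genes fell in each genotype, with a median log2 change of -1.50 in WT. Pcna, the sliding clamp, was 204 and 202 CPM in undifferentiated WT and 92.4 and 99.3 CPM on day 2 (-1.08 ± 0.13, adjusted p = 8.71e-06), and 200 and 188 CPM and then 102 and 114 CPM in W330R. It did not rise later, at 64.7 to 102 CPM on days 4 and 6 over all genotypes. A share of 19.1% of its 50-base stretches also occurs in other transcripts, chiefly the pseudogene Pcna-ps2. Rfc2, a clamp loader subunit, was the gene that moved least, at between 8.77 and 13.4 CPM in all 22 libraries.

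The members for Okazaki fragment processing and nucleotide supply all fell, with 2 of 2 and 5 of 5 genes lower in each genotype. Dna2 and Rnaseh2a were not members and are counted with the replication partners below. Lig1, the ligase that joins the fragments, was 81.0 and 80.1 CPM in undifferentiated WT and 92.6 and 94.2 CPM in W330R, and on day 2 was 9.51 and 7.97 CPM in WT, 9.84 and 10.5 CPM in W330R and 11.8 and 9.21 CPM in the double mutant. The groups lay far apart (-3.21 ± 0.20 in WT, adjusted p = 6e-08). Rrm1, the large subunit of ribonucleotide reductase, was 203 and 217 CPM in undifferentiated WT and 24.0 and 43.2 CPM on day 2 (-2.64 ± 0.25, adjusted p = 1.38e-06), and 191 and 189 CPM and then 27.4 and 26.7 CPM in W330R. Its partner Rrm2, which is limited to S phase in cycling cells, fell by 3.90 ± 0.38 in WT and by 4.0 ± 0.38 in W330R. Tyms, thymidylate synthase, fell least of the 5, by 0.86 ± 0.16 in WT.

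The G1/S regulators fell as well but did not move alike later. E2f1, an activating E2F, was 50.9 and 52.6 CPM in undifferentiated WT and 17.5 and 21.3 CPM on day 2, then 30.3 and 24.7 CPM on day 4 and 45.8 and 35.0 CPM on day 6. In W330R it was 51.4 and 55.8 CPM, then 23.3 and 23.8, then 35.4 and 37.6, then 50.5 and 44.6 CPM, and in the double mutant 19.9 and 18.7, 32.0 and 26.1, and 43.3 and 35.9 CPM on the 3 days. From day 2 to day 6 it rose in all 3 genotypes, by 1.05 ± 0.16, 1.01 ± 0.16 and 1.04 ± 0.16, to a level that no longer differed from undifferentiated cells past the threshold (-0.36 ± 0.16, adjusted p = 0.0766 in WT, and -0.17 ± 0.16, adjusted p = 0.419 in W330R). E2f2, its close relative, was 5.37 and 5.25 CPM in undifferentiated WT and 3.84 and 4.28 CPM in W330R, and afterwards lay between 0.19 and 1.4 CPM, with as few as 5 counts in a library. It stayed below undifferentiated cells on day 6 (-2.73 ± 0.41 in WT, adjusted p = 0.000108).

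The 2 genes for E-type cyclins, which activate CDK2 at the end of G1, went opposite ways after day 2. Ccne1 was 17.4 and 13.9 CPM in undifferentiated WT, 4.08 and 5.17 CPM on day 2, 8.23 and 8.18 CPM on day 4 and 10.4 and 11.4 CPM on day 6. In W330R its levels were 15.4 and 11.1, 4.44 and 4.95, 8.46 and 9.15, and 9.21 and 9.12 CPM, and in the double mutant 7.39 and 6.83, 9.0 and 8.48, and 8.93 and 11.2 CPM. Ccne2 was 38.8 and 41.3 CPM in undifferentiated WT, 23.0 and 26.3 CPM on day 2, 13 and 16.2 CPM on day 4 and 10.2 and 9.04 CPM on day 6. In W330R it was 37.3 and 35.7, 22.2 and 11.8, 18.3 and 12.8, and 11.5 and 9.32 CPM, and in the double mutant 17.3 and 18.6, 13.9 and 13.9, and 10.9 and 14.9 CPM. From day 2 to day 6 in WT, Ccne1 rose by 1.23 ± 0.20 on the log2 scale (adjusted p = 0.000739) and Ccne2 fell by 1.36 ± 0.26 (adjusted p = 0.00196). In W330R the rise of Ccne1 passed the test (0.96 ± 0.20) and the change of Ccne2 did not (-0.70 ± 0.26, adjusted p = 0.0598), and in the double mutant neither did (0.49 ± 0.20 and -0.49 ± 0.26).

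**Figure D2:**
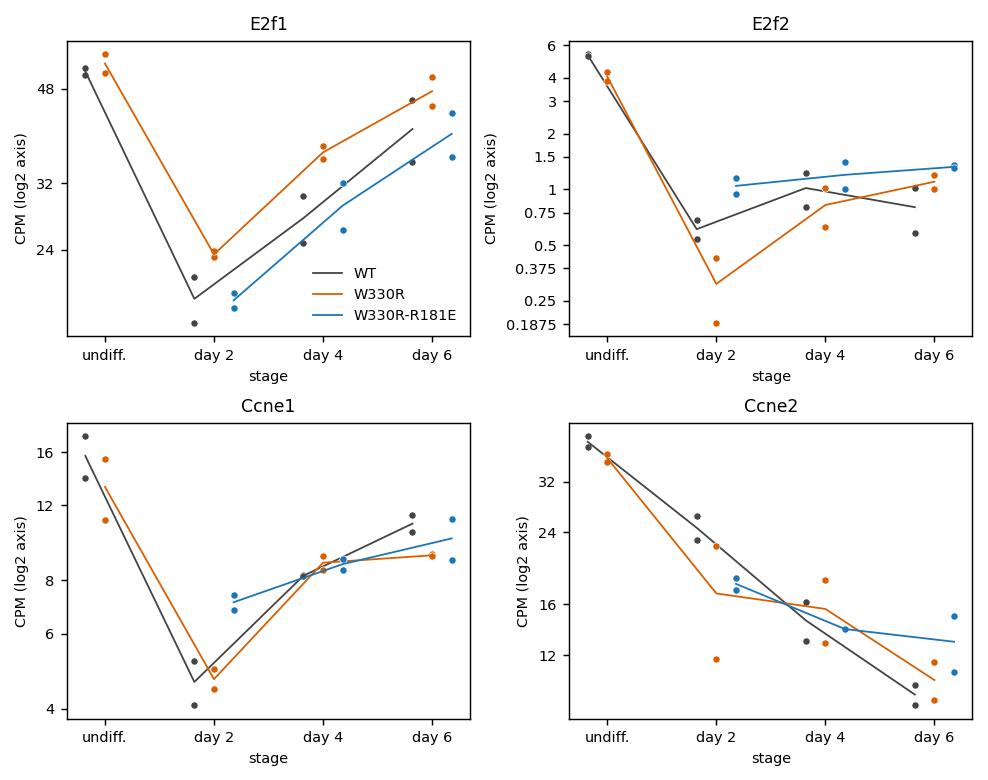
CPM on a log2 axis of E2f1, E2f2, Ccne1 and Ccne2 by stage, with 1 point a library and lines through the mean of the 2 libraries of each condition, coloured by genotype. E2f1 and Ccne1 dip on day 2 and climb to day 6, E2f2 stays low after a deep fall, and Ccne2 goes down to 10.2 and 9.04 CPM in WT on day 6.

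Day 2 was the lowest stage for 32 of the 41 genes in WT, 33 in W330R and 32 in the double mutant. The rise from there to day 6 was compared after the levels by stage had been seen. In WT 23 of 41 genes were higher on day 6 than on day 2, against 14.8% of all genes, and 1, Ccne2, was lower. In W330R 23 were higher, against 13.6%, and none was lower. In the double mutant 10 were higher, against 12.9% of all genes, and 1, Mcm7, was lower (DESeq2 called 16 higher). The median log2 change of the 41 genes was 0.61 in WT, 0.91 in W330R and 0.49 in cells with both substitutions, against 0.02, 0.01 and -0.0049 over all genes. For the WT count the library decided much, with 10 genes called in all without WT day 6 replicate 1 and 12 without WT day 2 replicate 2. In the double mutant 19 were called without day 2 replicate 1, 3 without day 2 replicate 2 and 5 without day 6 replicate 1.

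The rise was partial when set against the undifferentiated libraries, so the limit on that comparison holds here too. On day 6, 38 of 41 genes were still lower than in undifferentiated cells in WT, against 23.8% of all genes, and 33 of 41 in W330R, against 18.4%. Among the 35 genes that had fallen by more than 1 on the log2 scale in WT, the median share of the fall regained by day 6 was 32.8%, from -30.0% for Pcna, which fell further, to 73.9%. For the 33 such genes of W330R the median was 47.4%, from -54.6% for Ccne2 to 85.3%. The cut was made within each genotype, so the medians are not over the same genes. Pcna, Rpa1 and Rpa2 were in the WT set alone and Ccne2 in the W330R set alone. Genes with shallower falls were left out, among them Mcm7 and Orc6, which were lower still on day 6 in both genotypes. The genotypes' changes from undifferentiated to day 6 differed for none of the 41 genes, against 3.88% of all genes (edgeR, with 6 genes at an unadjusted p under 0.05, all higher in W330R, and none by DESeq2). Without WT day 6 replicate 1, 2 genes passed.

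**Figure D3:**
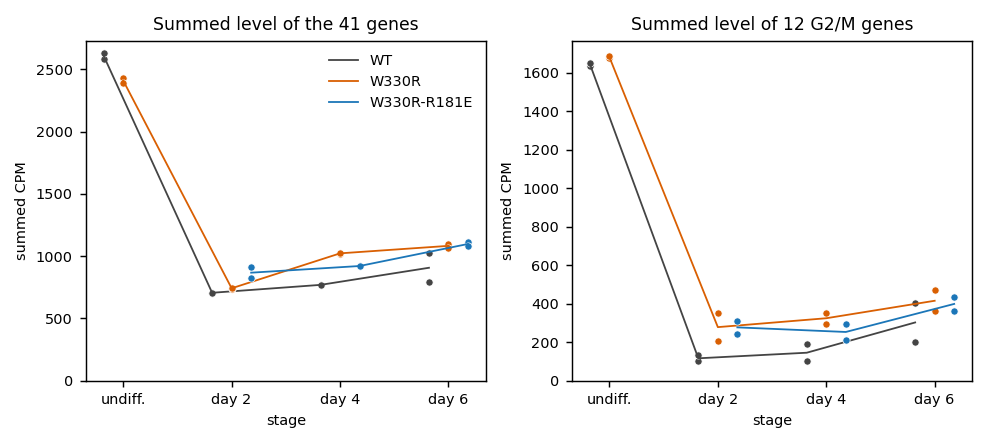
Summed CPM of the 41 genes (left) and of 12 G2/M genes (right) by stage, with 1 point a library and lines through the mean of the 2 libraries of each condition. On day 4 both W330R libraries (1018 and 1025 CPM in the left panel) lie above both WT libraries (766 and 771 CPM). In the right panel Top2a is most of the day 2 level of the W330R libraries and of replicate 2 of WT and of the double mutant.

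From day 2 to day 4 the genotypes' counts of rising genes differed, but the differences themselves did not pass a test. In W330R 15 of 41 genes rose between these days, against 7.37% of all genes, with Cdc6 (2.82 ± 0.54), Tk1 (2.49 ± 0.34) and Rrm2 (2.37 ± 0.36) ahead, and 1 fell, Mcm7, against 5.04%. In WT 3 rose, Mcm6, Lig1 and Ccne1, against 6.62%, and Mcm7 fell, against 4.16%. In the double mutant Lig1 and E2f1 rose, against 6.38%, and Mcm7 fell, against 4.33%. The number called in W330R, 16 in all, was between 6 and 11 without any 1 of its 4 libraries. The WT count was 0 without day 4 replicate 1, and 2 without day 2 replicate 2, and that of the double mutant was 12 without day 2 replicate 1 and 0 without day 2 replicate 2 or day 4 replicate 1. The difference between W330R and WT in this step was called for none of the 41 genes, against 0% of all genes (8 had an unadjusted p under 0.05, all with the larger rise in W330R, and none passed by DESeq2). Between the double mutant and W330R it was called for none, against 0% (12 at an unadjusted p under 0.05, all with the smaller rise in the double mutant, and 1 by DESeq2), with 2 called without double mutant day 2 replicate 2, and between the double mutant and WT for none, against 0% (none at an unadjusted p under 0.05 and none by DESeq2).

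From day 4 to day 6 no member was called in any genotype. In WT 0.324% of all genes passed in this step, and 11 members were higher and 1 lower at an unadjusted p under 0.05 (1 by DESeq2). In W330R 0% passed, with 1 member higher and 1 lower at an unadjusted p under 0.05 and none by DESeq2, and in the double mutant 0.0207% passed, with 9 members higher and none by DESeq2. The difference between W330R and WT in this step was called for no member, against 0% of all genes, with none at an unadjusted p under 0.05 and none by DESeq2.

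Before differentiation 31 of the 41 genes had a lower value in W330R than in WT and 10 a higher one, with log2 differences from -0.40 to 0.21. No member was called between W330R and WT, against 1.75% of all genes, with none at an unadjusted p under 0.05 and none by DESeq2, and the median log2 difference was -0.15 against -0.0043 over all genes. Both W330R libraries lay below both WT libraries for 26 of the 41 genes, against 32.3% of all genes. In a fit of these 4 libraries alone, whose replicates were the closest of the series, 14 genes passed, 13 of them lower in W330R.

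On day 2, 2 of the 41 genes were called between W330R and WT, a share near the background, and none was called in a fit of these conditions alone. Rpa1 was higher, against 1.88% of all genes, and Cdc45 was lower, against 1.18%. Cdc45, which joins the MCM ring to make it an active helicase, was 6.19 and 11.9 CPM in WT, 3.53 and 2.89 CPM in W330R, and 7.72 and 10.5 CPM in the double mutant. The W330R libraries were the lowest, and the WT libraries were further from each other than the lower of them was from the higher W330R library. The log2 difference of W330R from WT was -1.51 ± 0.36 (adjusted p = 0.0371), and it passed the test again without WT day 2 replicate 1 but not without any 1 of the other three libraries, falling to -0.93 without WT day 2 replicate 2. Rpa1, the large subunit of the single-strand binding protein, was 58.7 and 56.2 CPM in WT, 81.6 and 76.7 CPM in W330R and 74.5 and 69.2 CPM in the double mutant, so that the libraries of the 3 genotypes did not overlap. It was higher in W330R by 0.46 ± 0.11 (adjusted p = 0.0320), a call that no fit without 1 of the 4 libraries kept. Undifferentiated cells had 160 and 165 CPM in WT and 155 and 134 CPM in W330R, so Rpa1 fell less in W330R (-0.87 ± 0.11) than in WT (-1.50 ± 0.11). That difference of 0.63 ± 0.15 was the one called among the 41 genes (adjusted p = 0.0479), against 1.87% of all genes, and it passed without WT day 2 replicate 1 alone of the 8 libraries.

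Relative to W330R, whose 2 day 2 libraries are shared with the comparison above, 3 of the 41 genes were higher in the double mutant on day 2, against 0.964% of all genes, and none was lower. They were Cdc45 (1.51 ± 0.36, adjusted p = 0.0382), Tk1 and Fen1. Tk1, the thymidine kinase of S phase, was 7.70 and 4.87 CPM in WT, 3.63 and 3.46 CPM in W330R and 13.5 and 5.74 CPM in the double mutant. The difference was 1.41 ± 0.34 (adjusted p = 0.0400), carried mainly by double mutant replicate 1, and without that library it was 0.70 and did not pass. Fen1, the flap endonuclease of Okazaki fragments, was 14.3 and 24.5 CPM in WT, 11.8 and 14.8 CPM in W330R and 24.2 and 29.4 CPM in the double mutant, a difference of 1.01 ± 0.24 (adjusted p = 0.0360). The calls of Cdc45 and Fen1 were each lost without any 1 of the 4 libraries. Its exons overlap those of Tmem258 on the other strand, and those of Cdc45 overlap Ufd1, so that without strand their reads cannot be told apart. Exons of Rpa1 overlap Gm47300 on the same strand.

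Both libraries of the double mutant lay above both of W330R for 18 of the 41 genes on day 2, against 17.5% of all genes, and the median log2 difference was 0.36, against 0.02 over all genes. Its replicate 1 stood apart. Cdc6 was 4.76 CPM there and 1.14 CPM in replicate 2, Rrm2 was 21.1 and 8.72 CPM, and Mki67, a marker of cycling cells that is not one of the 41 genes, was 37.1 and 4.90 CPM, against 3.15 to 8.91 CPM in the WT and W330R libraries of that day. The number of genes called was 5 without replicate 2, 1 without replicate 1, 1 without W330R replicate 2 and 0 without W330R replicate 1. E2f2 was just outside the threshold (1.77 ± 0.45, adjusted p = 0.0505), with 8 and 5 counts in W330R and 14 and 19 in the double mutant.

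Between the double mutant and WT no member was called on day 2, against 0% of all genes (13 higher and none lower at an unadjusted p under 0.05, and 2 by DESeq2), with 1 called without WT replicate 1 and 1 without double mutant replicate 2. Both double mutant libraries were above both WT libraries for 20 of 41 genes, against 15% of all genes.

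**Figure D4:**
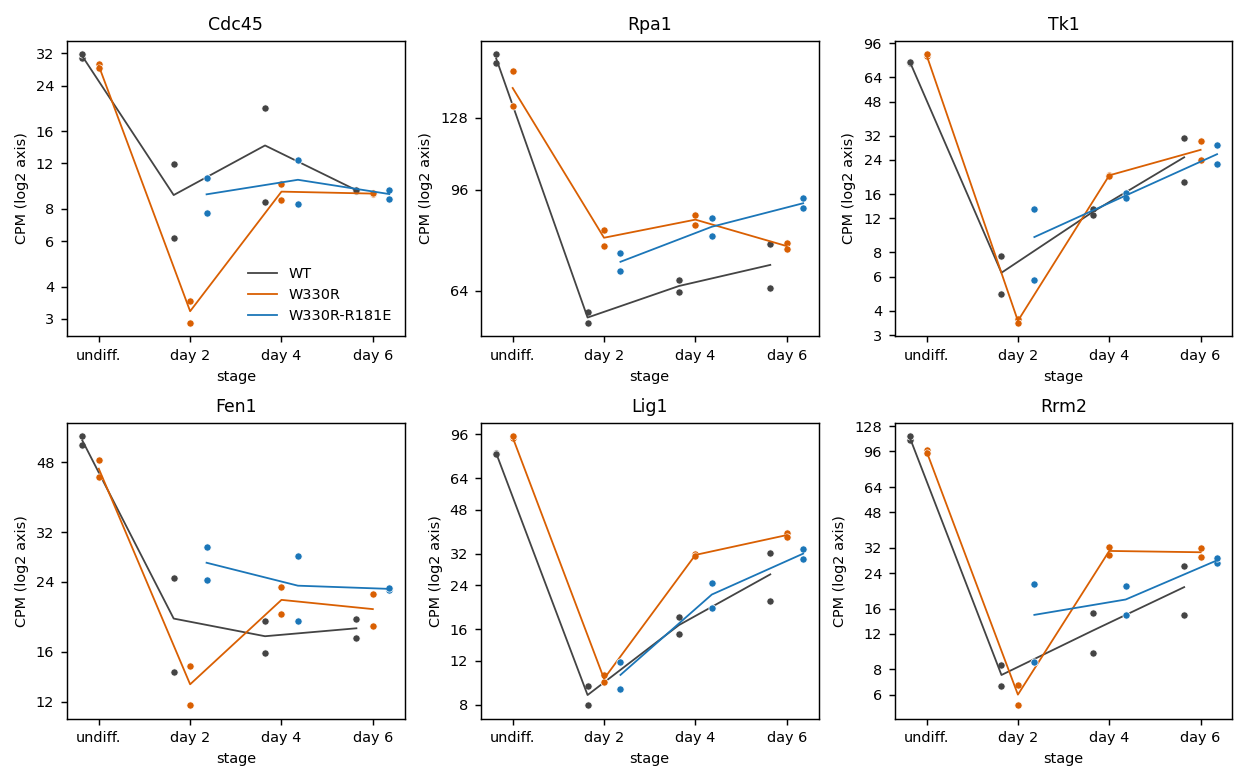
CPM on a log2 axis of 6 genes that were called between genotypes on day 2 or day 4, by stage, with 1 point a library and lines through the mean of the 2 libraries of each condition. On day 2 the W330R points are lowest for Cdc45 and Tk1 and highest for Rpa1, and on day 4 they are highest for Lig1 and Rrm2.

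On day 4, 8 of the 41 genes were called higher in W330R than in WT and none lower, against 2.73% of all genes higher, and the median log2 difference was 0.44, against 0.02 over all genes. Both W330R libraries were above both WT libraries for 32 of 41 genes, against 28% of all genes. The 8 were helicase subunits (Mcm3, Mcm4 and Mcm6), the polymerase delta subunit Pold1, the clamp loader subunit Rfc3, Rpa1, Lig1 and Rrm2. Lig1 was 17.9 and 15.3 CPM in WT, 32.0 and 31.3 CPM in W330R and 24.5 and 19.5 CPM in the double mutant (W330R minus WT 0.93 ± 0.19, adjusted p = 0.0149). Rrm2 was 15.2 and 9.69 CPM in WT, 32.3 and 29.5 CPM in W330R and 20.6 and 14.9 CPM in the double mutant (1.31 ± 0.34, adjusted p = 0.0394). For both genes the double mutant lay between the other genotypes. Mcm3 differed by 0.80 ± 0.18, Mcm6 by 0.78 ± 0.21 and Mcm4 by 0.66 ± 0.15, whereas Mcm7 (0.34 ± 0.12, adjusted p = 0.101) and Mcm5 (0.65 ± 0.69, adjusted p = 0.623) did not pass. At the other end, Cdc45 (-0.60 ± 0.34) and Gins4 (-0.50 ± 0.22) had negative values that did not pass.

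The call of these 8 genes was fragile, with none called in a fit of these conditions alone, 5 without WT day 4 replicate 1 and none without any 1 of WT replicate 2, W330R replicate 1 or W330R replicate 2, while DESeq2 called 11. Other values moved with genotype on the same day. The adipocyte markers summed to 4618 and 5938 CPM in WT, 1880 and 2310 CPM in W330R and 3127 and 2972 CPM in the double mutant, and their part in the result was not tested. The G2/M markers summed to 188 and 101 CPM in WT, 352 and 295 CPM in W330R and 296 and 209 CPM in the double mutant. None of the 12 was called between W330R and WT, against 2.73% of all genes higher.

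**Figure D5:**
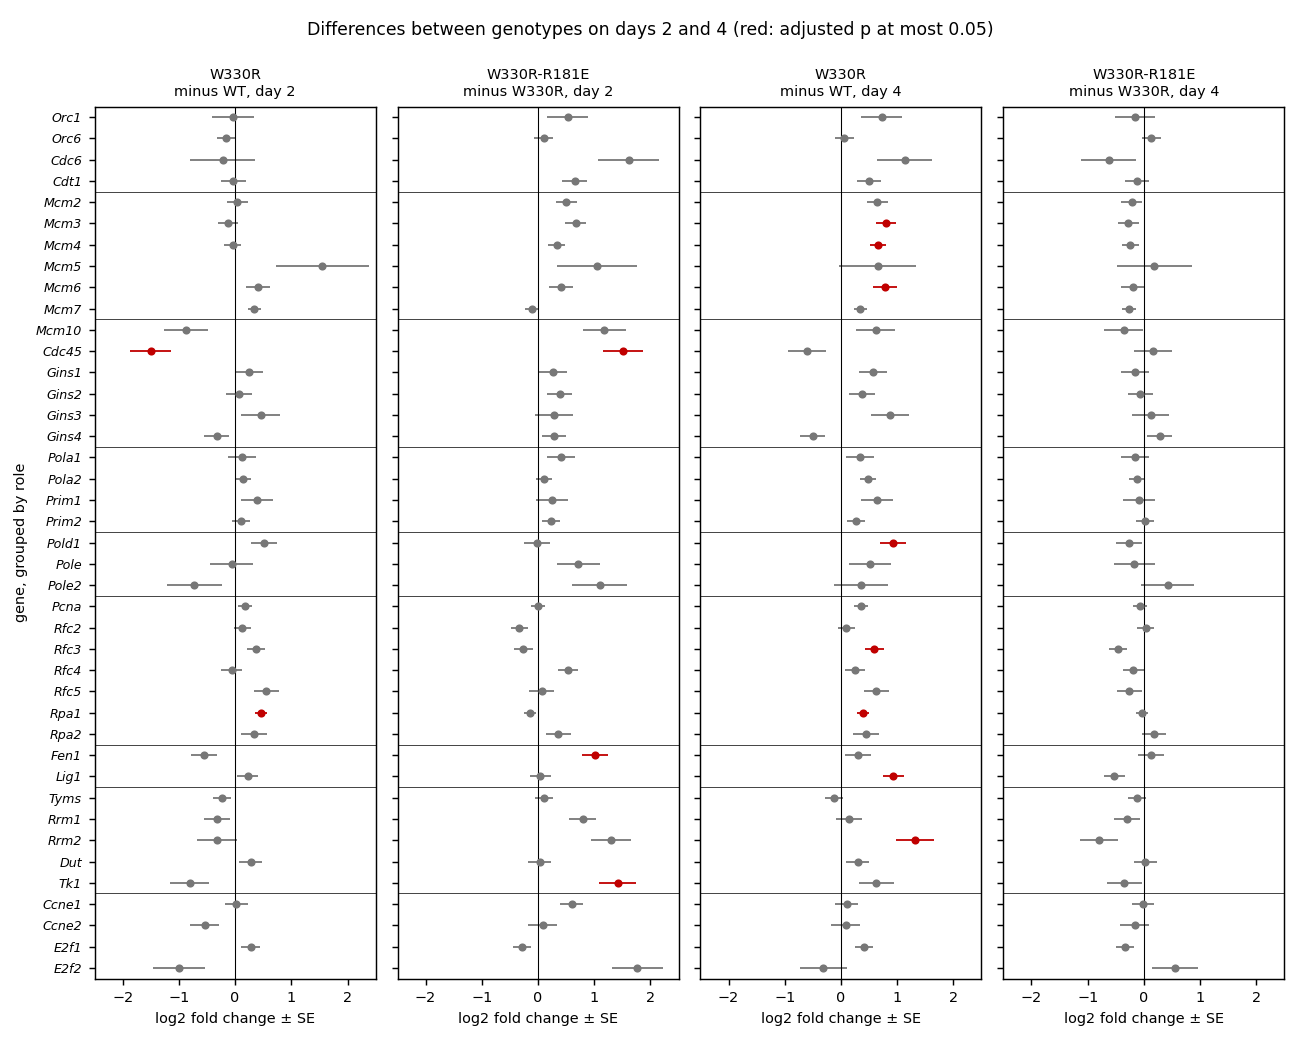
Log2 fold change with its standard error (bars) of each of the 41 genes in 4 comparisons of genotypes on days 2 and 4, from 1 fit of all 22 libraries. Red points have an adjusted p at most 0.05: Cdc45 and Rpa1 in the first panel, Cdc45, Fen1 and Tk1 in the second, 8 genes in the third and none in the fourth.

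The remaining comparisons called no member. On day 4 the double mutant did not differ from W330R, against 1.91% of all genes called (none higher and 4 lower at an unadjusted p under 0.05, and none by DESeq2), nor from WT, against 0% (11 higher at an unadjusted p under 0.05 and none by DESeq2), although both its libraries were above both WT libraries for 23 of 41 genes, against 20.4% of all genes. On day 6 W330R and WT showed no called member, against 7.54% of all genes (9 higher at an unadjusted p under 0.05, 1 by DESeq2), and without WT day 6 replicate 1, in which Mki67 was 77.3 CPM against 42.6 CPM in replicate 2, 5 were called. The double mutant differed on day 6 neither from W330R, against 1.5% of all genes (1 higher at an unadjusted p under 0.05, none by DESeq2), nor from WT, against 0.875% (10 higher at an unadjusted p under 0.05, 1 by DESeq2), with 2 called without WT day 6 replicate 1. On that day both its libraries were above both WT libraries for 20 of the 41 genes, again against 20.4% of all genes. A p that misses the threshold does not show that these genotypes were alike.

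Genes that act with the 41 were followed in lists chosen by function. Of 29 replication partners, such as the other ORC subunits, the accessory polymerase subunits and the fork protection proteins, 17 fell and 2 rose in WT on day 2, against 24.4% of all genes lower and 26.5% higher, and 19 fell and 2 rose in W330R, against 23% lower and 25.1% higher. Uhrf1, which recruits the maintenance methyltransferase to replicating DNA, fell by 5.53 ± 0.58 in WT, Clspn, a checkpoint mediator at the fork, by 5.14 ± 0.73, and Recql4, a helicase needed for initiation, by 4.75 ± 1.08. Pole4, named after its values were seen and a small accessory subunit of polymerase epsilon, went the other way (2.34 ± 0.24, adjusted p = 3.74e-06), from 37.0 and 38.2 CPM to 168 and 212 CPM in WT, and was back at 29.4 and 36.7 CPM on day 6. On day 4 Pole4 was lower in W330R than in WT (-1.09 ± 0.24, adjusted p = 0.0194), and Chaf1b, a subunit of the chromatin assembly factor that follows the fork, and Dbf4, the partner of the CDC7 kinase, were higher (1.07 ± 0.25 and 0.86 ± 0.24). Relative to W330R, the double mutant had more Mtbp RNA on day 2 (0.72 ± 0.16, adjusted p = 0.0266) and more Pole3 RNA on day 4 (0.46 ± 0.11, adjusted p = 0.0442).

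Of 14 G1/S cyclins, kinases and activators, 7 fell and 1 rose on day 2 in each of WT and W330R, against 24.4% and 23% of all genes lower and 26.5% and 25.1% higher. Ccna2, the cyclin of S phase, fell by 5.06 ± 0.60 in WT, Ccnd1, the D-type cyclin of early G1, by 3.98 ± 0.52, and Mybl2, a transcription factor of the cell cycle, by 2.54 ± 0.28. Of 8 repressive E2F and pocket protein genes, 3 fell in WT, against 24.4% of all genes, and 5 fell and 1 rose in W330R, against 23% and 25.1%. In W330R 3 fell without undifferentiated replicate 1. E2f8, an E2F repressor that is itself made in S phase, fell by 4.45 ± 0.89 in WT and by 5.47 ± 0.94 in W330R. Rb1, the retinoblastoma gene, was 67.7 and 69.0 CPM in WT on day 2 and 43.1 and 38.5 CPM in W330R (-0.74 ± 0.18, adjusted p = 0.0426), and Rbl2, for the pocket protein p130, was higher in undifferentiated W330R than WT cells (1.07 ± 0.19, adjusted p = 0.0112). Cdk4, a kinase of the D-type cyclins, was higher in W330R on day 6 (0.53 ± 0.13, adjusted p = 0.0239).

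Of the 12 genes listed as G2/M markers, which include Mki67, a marker of cycling cells, 12 fell in WT and 11 in W330R on day 2. Of all genes, 24.4% and 23% were lower. Their summed level was 1636 to 1686 CPM before differentiation and 99.7 to 351 CPM on day 2. Mki67 fell from 387 and 396 CPM to 8.91 and 4.48 CPM in WT (-5.89 ± 0.75) and from 454 and 455 CPM to 3.15 and 3.84 CPM in W330R. Top2a, named after its values were seen and the topoisomerase that unties sister chromatids, was the G2/M gene not called in W330R, at 521 and 518 CPM before and 169 and 316 CPM on day 2 (-1.10 ± 0.47, adjusted p = 0.0664). Top2a alone thus made up most of the G2/M sums of 204 and 351 CPM in these W330R day 2 libraries. The same held in day 2 replicate 2 of WT and of the double mutant, whose G2/M sums were 131 and 309 CPM. In day 2 replicate 1 of the double mutant, with a sum of 243 CPM, Top2a was the smaller part. From day 2 to day 4, 11 of the 12 rose in W330R, 1 in WT and none in the double mutant, against 7.37%, 6.62% and 6.38% of all genes. These counts turned on single libraries, with 3 called in W330R without day 2 replicate 1 and 5 without day 2 replicate 2, and with 11 higher in the double mutant without its day 2 replicate 1. The steps' difference between W330R and WT was called for no gene.

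Of 6 measured CDK inhibitors, which hold cells in G1, 3 were higher in WT on day 2 and 4 in W330R than in undifferentiated cells, against 26.5% and 25.1% of all genes, and none was lower. In W330R 2 were called without undifferentiated replicate 1 or without day 2 replicate 1. Cdkn2a and Cdkn2b, neighbours that encode p16, p19ARF and p15, had 0 to 1 counts in each undifferentiated library, and were between 5.65 and 19.0 CPM and between 6.14 and 49.5 CPM in the 18 later libraries. Whether this came with differentiation or with a difference in the cells or libraries used was not tested. Cdkn1a, for p21, rose in W330R (0.93 ± 0.28, adjusted p = 0.0131), and in WT had 0.68 ± 0.28 (adjusted p = 0.0515). Cdkn2c, for p18, was 129 and 157 CPM in WT on day 4, 67.0 and 57.5 CPM in W330R and 78.6 and 78.3 CPM in the double mutant. It was lower in W330R than in WT on day 4 (-1.20 ± 0.16, adjusted p = 0.00302) and day 6 (-1.16 ± 0.16, adjusted p = 0.00124) and on day 6 the double mutant was also below WT (-0.90 ± 0.16, adjusted p = 0.0226). Cdkn1b, for p27, was 133 and 106 CPM in WT on day 2, 180 and 178 CPM in W330R and 85.9 and 103 CPM in the double mutant. The double mutant was lower than W330R (-0.92 ± 0.16, adjusted p = 0.00807), and on day 4 W330R was higher than WT (0.58 ± 0.16, adjusted p = 0.0484).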

How the data were processed

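RNA was sequenced from 22 libraries made with a kit that does not mark strand. The authors deposited 1 table of raw counts per gene symbol, whole numbers without normalization. The submitters' processing notes name kallisto, DESeq2 1.40 and GRCm39, without saying what each was used for, and their counter, its settings and the annotation are not given in the sources used here. Estimated counts from such a tool split reads between similar transcripts. Columns were matched to samples by genotype, day and replicate.

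The deposited counts were filtered with filterByExpr (minimum count 10, minimum total 15), scaled by TMM and fitted in 1 quasi-likelihood model over all 22 libraries with edgeR 4.0.16 in R 4.3.3, which shares the estimate of spread. There were 26 planned contrasts and 3 added ones (day 6 against day 2). P-values were adjusted by Benjamini-Hochberg over all 14520 genes, the threshold was 0.05, and standard errors are the log2 fold change divided by the root of F. DESeq2 1.42.0, RLE scaling, no filter, a replicate block, a fit of only the conditions compared, and leaving out each library were alternatives.

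The members and lists were chosen with earlier results of these data known. Genes given by library were the gene of each of 9 roles with the highest mean log2 CPM, the E2F and cyclin E genes, and the called genes with the largest change in each day 2 comparison. From the other lists, the called genes with the largest changes were named, up to 3 per list and comparison. Gene overlaps and shared 50-base stretches came from GENCODE transcripts of an older mouse build, so no coordinates were taken from them, and promoters came from RefSeq. By that annotation 13 members have exons that overlap a gene on the other strand, 3 on the same strand, and 2 share over 10% of their 50-base stretches with other genes.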

Additional observations from a re-analysis of the deposited data

Results flagged for a closer look

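The fall of Rpa1 from undifferentiated cells to day 2 was smaller in W330R than in WT, by 0.63 ± 0.15 on the log2 scale, and this difference between the genotypes passed its own test (edgeR, adjusted p = 0.0479), 1 call among 41 genes against 1.87% of all genes. The call was lost with RLE scaling, without a filter, in a fit of only the conditions compared, and in 7 of 8 fits that left out 1 library.

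Among the genes of the other lists, Rbl2 differed between W330R and WT in its change from undifferentiated cells to day 6, by -1.09 on the log2 scale, and so did Cdkn2c, by -1.11. Rbl2 was 79.4 and 66.3 CPM in undifferentiated W330R libraries against 29.0 and 40.4 CPM in WT, and 63.2 and 50.5 against 55.7 and 59.7 CPM on day 6. Cdkn2c was 46.0 and 50.7 CPM against 50.1 and 49.6 CPM, and 57.0 and 50.3 against 111 and 128 CPM on day 6.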

How the results depend on the processing

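None of the 5 single log2 differences changed sign under an alternative. Counts of called members were compared by size alone, so this does not speak to them. The falls from undifferentiated cells to day 2 and day 6 kept counts within 1.5 times of those given under every alternative. DESeq2 called 8 members for W330R-R181E minus W330R on day 2, 12 for WT from day 2 to day 4, 17 for the double mutant from day 2 to day 6, 2 for the double mutant minus WT on day 2, and 1 each for W330R minus WT and for the double mutant minus WT on day 6, for WT from day 4 to day 6 and for the difference between double mutant and W330R in the step to day 4. RLE scaling left 0 in the difference between W330R and WT in the step to day 2. Without a filter this was also 0, and W330R minus WT on day 2 had 1. A fit of only the conditions compared gave 14 for undifferentiated W330R minus WT, 4 for WT and 0 for the double mutant from day 2 to day 6, and 0 for W330R minus WT on days 2 and 4, for the double mutant minus W330R on day 2, for the step from day 2 to day 4 in WT and in the double mutant, and for the difference in the step to day 2. These fits have fewer residual degrees of freedom.

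Leaving out 1 library, whose lone partner was then assumed to vary like the other groups, gave 0 to 2 calls for W330R minus WT on day 2, 0 to 5 on day 4 and 0 to 5 on day 6, 0 to 5 for the double mutant minus W330R on day 2, 0 to 1 and 0 to 2 for the double mutant minus WT on days 2 and 6, 6 to 11, 0 to 3 and 0 to 12 from day 2 to day 4 in W330R, WT and the double mutant, 10 to 25 and 3 to 19 from day 2 to day 6 in WT and the double mutant, and 0 to 1, 0 to 2 and 0 to 2 for the differences in the step to day 2, in day 6 minus undifferentiated, and between double mutant and W330R in the step to day 4. Single log2 differences kept their call in 2 of 20 such fits.

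Same-numbered libraries deviated together (correlation over 0.1) in 27 of 55 pairs of conditions, all 27 among the 36 pairs of differentiating conditions (lowest -0.021, mean 0.22, highest 0.53). This is a hint that numbers tie those libraries, but not every pair passed and no label says so, so they were not taken as pairs. With a replicate block the calls were 1 for W330R minus WT on day 6, 6 for the double mutant minus W330R on day 2, 10 for WT from day 2 to day 4 and 20 for the double mutant from day 2 to day 6. Depth limits Cdc6, Mcm5 and E2f2, at 0 to 25 counts in some day 2 libraries.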

Other observations

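Several members ran higher in 1 numbered library of a condition. On day 2 Cdc45, Fen1, Rrm1 and Gins4 were higher in replicate 2 than in replicate 1 of WT and of the double mutant, at 11.9 against 6.19 CPM and 10.5 against 7.72 CPM for Cdc45, and at 43.2 against 24.0 CPM and 56.7 against 36.8 CPM for Rrm1, whereas Cdc6, Pole2 and Prim1 were higher in replicate 1 of the double mutant. Top2a was also higher in replicate 2 on day 2, at 99.5 against 50.7 CPM in WT, 316 against 169 CPM in W330R and 276 against 91.1 CPM in the double mutant, where Mki67 was 4.48, 3.84 and 4.90 CPM in the same replicate 2 libraries.

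Rfc1, the large subunit of the clamp loader, was 2.62 and 13.9 CPM in the W330R libraries of day 2, and Tfdp1, the dimerization partner of E2F proteins, was 0.855 and 27.7 CPM there.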
